A study of Mus musculus with 8 samples.

Results

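The gene set described here holds 33 mouse genes that code for chaperones of the endoplasmic reticulum (ER) and for the unfolded protein response. It was taken from a fixed list of gene symbols, and a gene was tested where its brightest probe stood well above background on both arrays of some group. That left 32 of the 33 genes, among 25804 genes and unnamed probes tested. The exception was Derl3, a membrane protein of ER-associated degradation, whose probe was well above background on 0 of 8 arrays. All 32 genes tested were well above background on all 8 arrays.

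The arrays measured RNA of mouse 3T3-L1 fibroblasts that had spent 1 week in adipogenic medium and then received culture supernatant of human HL-60 leukemia cells. All HL-60 cells had spent 5 days in 30 nM PMA, a phorbol ester, which turns them macrophage-like, and the supernatants were used at 2-fold dilution. The groups differed in whether the HL-60 cells had a knockdown of USP2, a deubiquitinating enzyme, or carried a mock vector, and in whether RNA was taken after 3 h or 6 h. The 3T3-L1 cells themselves were not genetically altered, and the labels do not say how the knockdown was made, whether it was 1 clone, or whether replicate wells shared a supernatant. There were 2 arrays in each of the 4 groups, called control and knockdown below after the supernatant. The design asks how the knockdown in the HL-60 cells alters what their supernatant does to 3T3-L1 transcripts at each time.

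On each array 50.7% to 55.9% of the spots other than controls were well above background, and the signal's 75th percentile ranged from 478 to 621. Signals are given below as log2 values relative to that percentile, so a level compares 1 gene between arrays and never 2 genes with each other. The 8 arrays lay on 1 slide, with 3 h arrays in row 1, 6 h arrays in row 2, the control arrays filling columns 1 and 2, and the knockdown arrays 3 and 4. Time and slide row cannot be told apart, nor can supernatant and slide column. Bright patches took up 2.65% and 1.49% of the control 6 h arrays and at most 0.572% of any other array. Among the 32 genes only Edem2 had a spot in a patch, on knockdown 6 h replicate 1. Of 18 adipocyte markers 10, such as Pparg, Fabp4 and Lpl, exceeded background clearly on every array, and 6 on no array, namely Adipoq, Cfd, Cd36, Cidec, Lep and Slc2a4. The 12 markers of preadipocytes and fibroblasts did so on every array. Of 10 macrophage and leukocyte markers on the arrays, 6 did so on every array (Csf1r, Itgam, Cd14, Lyz2, Cd3e and Aif1) and 4 on none, among them Ptprc, Adgre1 and Tyrobp. Of 8 endothelial and muscle markers, 3 did so on every array and 5 on none.

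Proteins that enter the ER fold with the help of HSP70 and HSP90 type chaperones, lectins that bind their sugar chains and isomerases that form disulfide bonds, and those that fail are returned to the cytosol and degraded, a route called ERAD. When unfolded proteins build up, the membrane sensors IRE1 (gene Ern1), PERK (gene Eif2ak3) and ATF6 start the unfolded protein response. IRE1 splices the Xbp1 mRNA into one that codes for an active factor, ATF6 is cut to release a transcription factor, and PERK slows translation through eIF2alpha while favouring ATF4 and its target CHOP (gene Ddit3). Fat cells secrete much protein, and Xbp1 is known for a part in adipocyte differentiation. Probes of the kind used here do not tell spliced from unspliced Xbp1 mRNA, cut from uncut ATF6 or phosphorylated from unphosphorylated proteins.

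ATF6 and XBP1 act through a short promoter motif, the ER stress response element (ERSE), and the sequences show how many of the genes carry it. Promoters of 250 bases before to 50 after each gene's start came from RefSeq for GRCm38.p6, which holds 28 of the 33 genes. Both strands were searched for ERSE (CCAAT, any 9 bases, CCACG), ERSE-II (ATTGG, any 1 base, CCACG) and the UPR element (UPRE, TGACGTGG). ERSE stood in 9 of the 28 promoters (32.1%), against 37 of 27025 genes overall (0.137%). ERSE-II stood in 2, Herpud1 and Dnajb11, against 12 genes overall (0.0444%). The UPRE stood in 1, Txndc5 (3.57%), against 193 genes overall (0.714%). Of 114 promoters of other genes of the pathway 1 held ERSE or ERSE-II, that of Ero1b. The match in each printed sequence is in capitals and the sequence runs 5′ to 3′ on the strand of the gene. A match is a description of the letters, not a shown binding site. Chromosome names and positions are whole numbers, and a decimal ending in a label carries no meaning. Hspa5 codes for BiP, the main HSP70 chaperone of the ER, and 130 bases of its promoter are shown because it is the classical target.
Hspa5, chr2:34771960-34772089, plus strand: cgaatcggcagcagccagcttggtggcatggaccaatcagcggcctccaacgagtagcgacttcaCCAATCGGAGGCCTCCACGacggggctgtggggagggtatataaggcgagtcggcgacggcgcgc
The chaperones Hsp90b1 (2 matches), Dnajc3, Calr and Canx are shown with 10 bases on each side of the match.
Hsp90b1, chr10.0:86705628.0-86705666.0, minus strand: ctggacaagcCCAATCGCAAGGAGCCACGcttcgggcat
Hsp90b1, chr10.0:86705523.0-86705561.0, minus strand: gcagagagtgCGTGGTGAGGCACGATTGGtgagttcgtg
Dnajc3, chr14.0:118937817.0-118937855.0, plus strand: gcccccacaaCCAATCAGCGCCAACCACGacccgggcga
Calr, chr8.0:84847065.0-84847103.0, minus strand: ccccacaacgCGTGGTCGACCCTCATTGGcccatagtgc
Canx, chr11.0:50325790.0-50325828.0, minus strand: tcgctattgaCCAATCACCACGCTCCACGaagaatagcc
The same is shown for the isomerase Pdia6, the secreted protein Creld2, the ubiquitin ligase Syvn1 and, with ERSE-II, the degradation factor Herpud1.
Pdia6, chr12.0:17266481.0-17266519.0, plus strand: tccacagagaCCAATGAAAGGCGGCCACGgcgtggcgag
Creld2, chr15.0:88819510.0-88819548.0, plus strand: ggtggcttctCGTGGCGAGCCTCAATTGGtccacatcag
Syvn1, chr19.0:6046522.0-6046560.0, plus strand: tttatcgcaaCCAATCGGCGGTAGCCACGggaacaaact
Herpud1, chr8.0:94386367.0-94386397.0, plus strand: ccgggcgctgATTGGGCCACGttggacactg
Calr, Creld2 and the second site of Hsp90b1 carry the motif on the strand opposite to the gene, so that the printed letters read CGTGG first. The matches in these genes lay 26 bases (Syvn1) to 194 bases (Hsp90b1) before the start.

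The supernatant of the USP2 knockdown cells made no called difference in any of the 32 genes. At 3 h 0 of 32 were called at a limma adjusted p under 0.05, where 0.248% of all features were called. At 6 h 0 of 32 were called, where 2.22% of all features were. Averaged over both times 0 of 32 were called against 3.06% of all features, and 0 of 32 differed in their supernatant effect between the times, against 0.0% of all features. Before adjustment 3, 2, 2 and 1 genes had a p under 0.05 in these comparisons, and the smallest adjusted p was 0.214, 0.216, 0.0734 and 0.565. No alternative called a gene at 3 h, at 6 h or for the difference of the effects.

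The median log2 difference of the 32 genes was -0.0025 at 3 h and 0.016 at 6 h, beside -0.018 and -0.0094 for all features. The 95% interval lay within 0.5 of 0 on the log2 scale, a 1.41-fold difference, for 30 of 32 genes at 3 h and for 30 at 6 h. The exceptions were Edem2, with bounds reaching -0.77 at 3 h and 0.96 at 6 h, and Dnajb9, with upper bounds of 0.58 and 0.71. At 3 h the arrays of the groups did not overlap for 6 genes that were higher and 12 that were lower with knockdown supernatant, where 20.2% and 26.9% of all features did so. At 6 h this held for 6 and 4 genes, against 24.8% and 23.1% of all features.

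**Figure D1:**
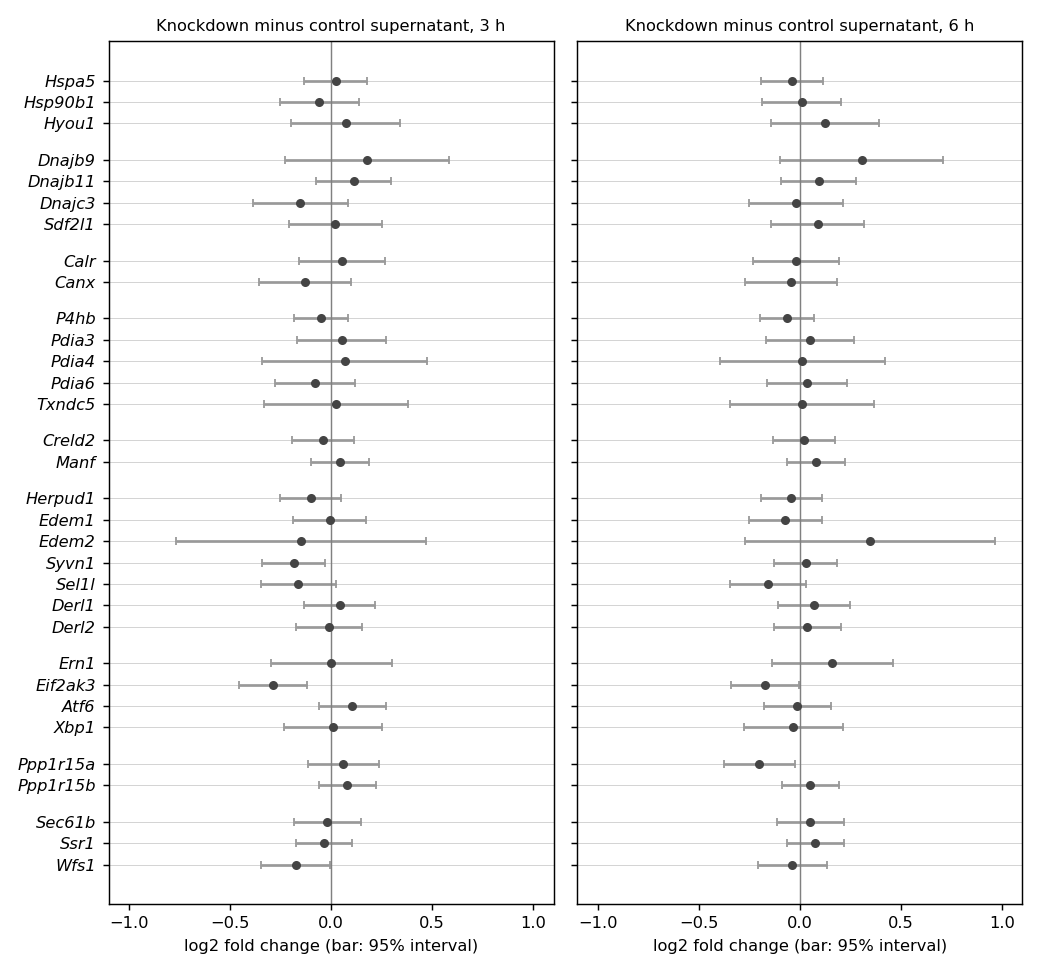
Knockdown minus control supernatant for each of the 32 genes at 3 h (left) and 6 h (right), as a log2 fold change with its 95% interval, grouped by role. Most intervals cross 0, and those that reach furthest from 0 belong to Edem2 and Dnajb9.

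Eif2ak3, the gene of the sensor kinase PERK, came closest to a call. Its log2 signal was 2.21 and 2.17 with control and 1.84 and 1.96 with knockdown supernatant at 3 h, and 0.82 and 0.78 with control and 0.62 and 0.63 with knockdown supernatant at 6 h. Both knockdown arrays lay below both control arrays at each time. The log2 difference was -0.29 ± 0.068 at 3 h, -0.17 ± 0.068 at 6 h and -0.23 ± 0.048 for the average (SE; limma adjusted p = 0.214, 0.256 and 0.0734). With 2 of the alternatives the average was called, scaling to the 75th percentile of detected probes (-0.26, adjusted p = 0.0495) and testing only features above background on all 8 arrays (-0.23, adjusted p = 0.0479). The other genes with an unadjusted p under 0.05 were Syvn1 (-0.18) and Wfs1 (-0.18) at 3 h, Ppp1r15a (-0.20) at 6 h and Sel1l (-0.16) for the average, none of them called after adjustment.

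Beyond these genes, 142 others of the pathway were tested with the supernatants. At 3 h and at 6 h 0 of them were called by limma, against 0.248% and 2.22% of all features. Before adjustment 7 and 19 had a limma p under 0.05. Averaged over the times 2 of 142 were called, Ddit3 (lower) and Vegfa (higher), or 0.704% in each direction. Of all features 3.06% were called for the average, in either direction. Ddit3 codes for CHOP, the transcription factor at the end of the PERK branch, and its log2 signal was 2.91 and 2.76 with control and 2.50 and 2.41 with knockdown supernatant at 3 h, and 3.84 and 3.82 with control and 3.44 and 3.42 with knockdown supernatant at 6 h. Both knockdown arrays lay below both control arrays at each time. The averaged log2 difference of Ddit3 was -0.39 ± 0.053 (SE; limma adjusted p = 0.0234), with -0.38 at 3 h (adjusted p = 0.151) and -0.40 at 6 h (adjusted p = 0.0683). Vegfa, a growth factor of blood vessels, was higher by 0.39 ± 0.055 on average (SE; limma adjusted p = 0.0259). Both calls were lost with no scaling and with no filter on dim probes, that of Ddit3 also with median scaling and that of Vegfa with the replicate block. They were lost too without any 1 of the control 3 h, knockdown 3 h or knockdown 6 h arrays, with a limma adjusted p up to 0.111 for Ddit3 and 0.12 for Vegfa. Of 36 chaperones of the cytosol and mitochondria 0 were called in any of the 4 supernatant comparisons.

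Between 3 h and 6 h many of these genes fell, and 0 of them rose. With control supernatant 18 of the 32 genes were lower at 6 h and 0 higher, where 23.4% of all features were called lower and 16.3% higher. With knockdown supernatant 14 were lower and 0 higher, where 22.6% of all features were called lower and 17.5% higher. The median log2 change was -0.25 with each supernatant, beside -0.071 and -0.11 for all features. The 13 genes lower with both supernatants were Hspa5, Dnajb9, Dnajc3, Manf, Herpud1, Edem1, Syvn1, Eif2ak3, Atf6, Xbp1, Ppp1r15a, Ppp1r15b and Wfs1, and 17.9% of all features were lower with both. Another 5 were called with control supernatant only (Pdia6, Creld2, Derl2, Ern1 and Ssr1) and 1 with knockdown supernatant only (Calr), while the difference between the supernatants was called for 0 genes. The arrays hold RNA of whole wells, so fewer cells of a type and less RNA per cell cannot be told apart.

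The point estimates lay below 0 for 32 of 32 genes with control and 30 of 32 with knockdown supernatant, against 58.0% and 61.1% of all features. These counts depended on the scaling, at 28 and 22 with no scaling, 28 and 27 with quantile normalization and 26 and 25 with the 75th percentile of detected probes, while the median of the 32 genes stayed below 0 under each scaling. At 6 h both arrays lay below both 3 h arrays for 27 of 32 genes with control and for 27 with knockdown supernatant, where 40.2% and 48.4% of all features did so. Across the 32 genes the changes with the supernatants correlated at 0.943, beside 0.792 over all features, as a description of genes measured on 1 slide and in no shared arrays.

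**Figure D2:**
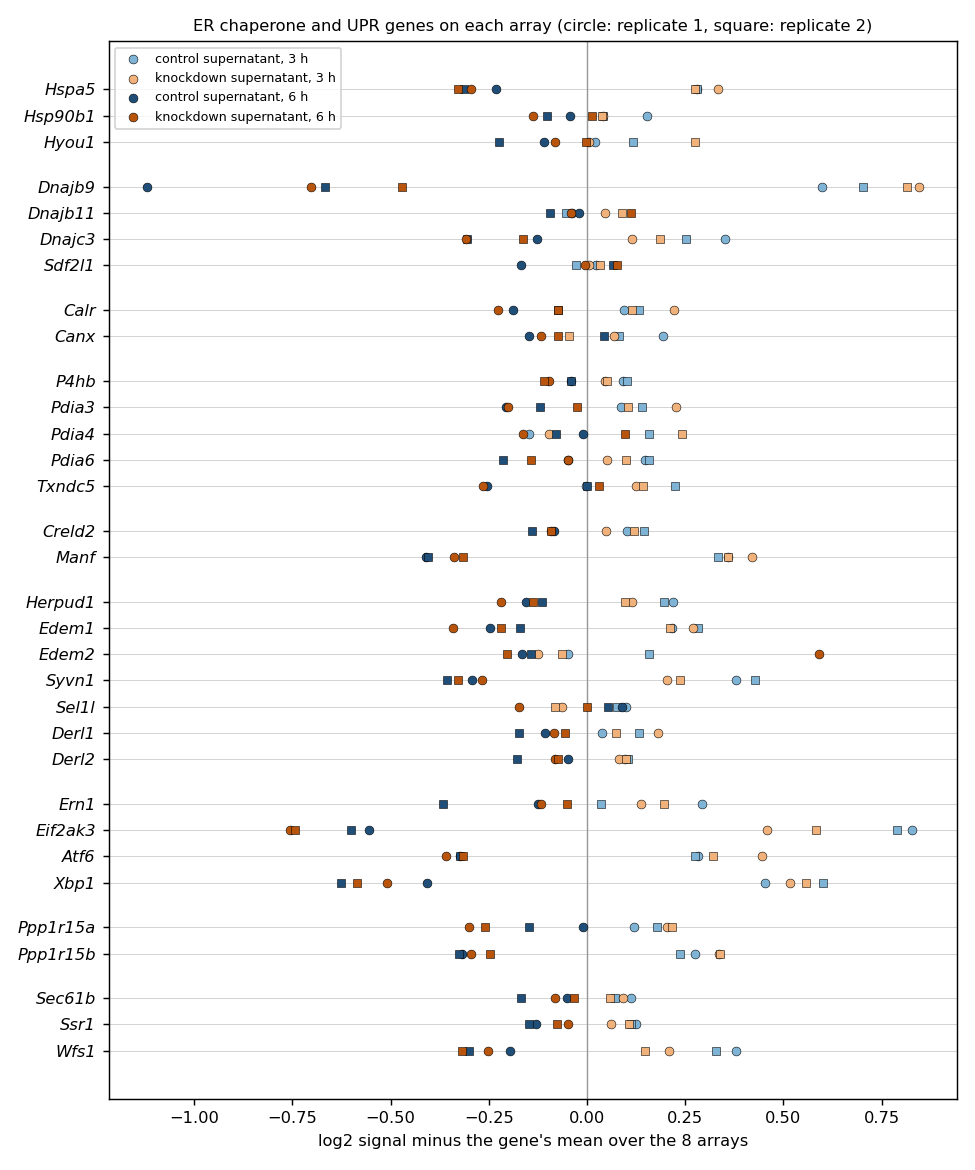
Log2 signal of each gene on each of the 8 arrays, relative to the mean of that gene over the arrays, with genes grouped by role. The 3 h arrays (light) lie to the right of the 6 h arrays (dark) for most genes, widest for Dnajb9, Eif2ak3 and Xbp1, and the lone dark point far right is Edem2 on knockdown 6 h replicate 1.

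Over all features the balance of calls between the times moved with the scaling. With control supernatant 4212 features were higher and 6039 lower, which became 2703 and 9469 with scaling to each array's median and 6426 and 4085 with the 75th percentile of detected probes. With knockdown supernatant 4526 were higher and 5825 lower, which became 3493 and 7074 with median scaling, 3685 and 1816 with no scaling, and 5989 and 3982 with the 75th percentile of detected probes. The median of all features shifted by -0.19 (control) with median scaling, by 0.17 (knockdown) with no scaling, and by 0.17 and 0.13 with detected probes. Relative to that median, the median of the 32 genes was -0.18 with control and -0.14 with knockdown supernatant, and -0.084 and -0.07 with quantile normalization. Under none of these scalings was 1 of the 32 genes called higher.

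The summed linear signal of the adipocyte markers, in units of the array's 75th percentile, moved with time too. It was 255 to 257 with control and 249 to 256 with knockdown supernatant at 3 h, and 214 to 226 and 204 to 213 at 6 h. For the preadipocyte and fibroblast markers it was 2355 to 2509 and 2384 to 2394 at 3 h, and 2218 to 2539 and 2102 to 2273 at 6 h. The 6 h arrays were lower for the adipocyte sum, to which Fabp5 contributed most, with log2 signals of 7.46 to 7.53 at 3 h and 7.11 to 7.28 at 6 h. Single adipocyte markers went both ways, since Plin4 (0.80 to 1.22 at 3 h, 1.60 to 2.44 at 6 h), Dgat2 (0.49 to 0.63, then 1.39 to 1.46) and Agpat2 (0.47 to 0.66, then 0.87 to 1.21) had higher log2 signals at 6 h. For the macrophage and leukocyte markers the sum was 44.2 to 46.9 with control and 54.8 to 56.8 with knockdown supernatant at 3 h, and 39.6 to 45.7 and 39.9 to 42.6 at 6 h. It was lower at 6 h with knockdown supernatant and higher with knockdown than with control supernatant at 3 h. Itgam contributed most to this sum, with log2 signals of 5.22 to 5.28 (control) and 5.56 to 5.62 (knockdown) at 3 h. At 6 h Itgam had 4.98 to 5.16 and 4.96 to 5.08. Single markers went both ways. With knockdown supernatant Cd14 (1.64 to 1.78, then 1.98 to 2.05) and Aif1 (-0.52 to -0.49, then 0.24 to 0.26) were higher at 6 h. Csf1r and Lyz2 were lower with knockdown than with control supernatant at 3 h. For the endothelial and muscle markers it was 8.9 to 10.4 and 9.67 to 10.6 at 3 h, and 9.21 to 12.4 and 8.95 to 9.13 at 6 h. The part of these marker lists in the results was not tested.

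**Figure D3:**
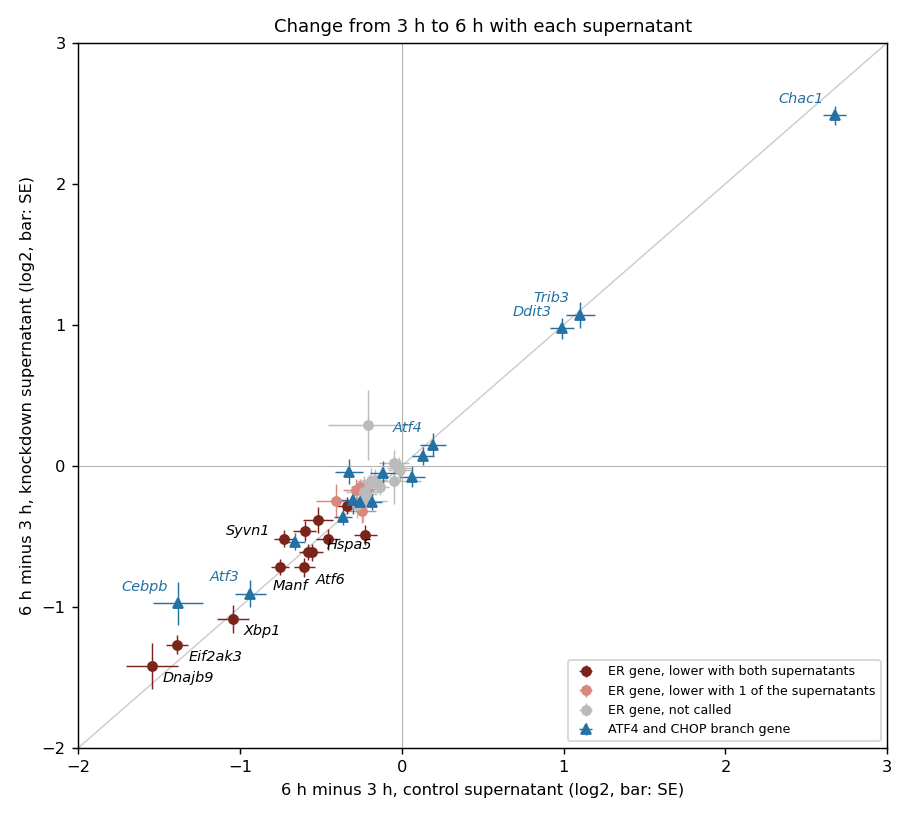
Log2 change from 3 h to 6 h with control (horizontal) and knockdown supernatant (vertical), with standard errors, for the 32 genes (circles) and the 15 genes of the ATF4 and CHOP branch (triangles). Called genes of the set lie at the lower left along the diagonal, while Chac1, Trib3 and Ddit3 lie at the upper right.

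In what follows a level is a log2 signal, a ± value is a log2 change with its standard error (2 arrays per group), and paired changes are from 3 h to 6 h with control and then knockdown supernatant. Of the HSP70 and HSP90 chaperones 1 of 3 was lower at 6 h with each supernatant, and it was Hspa5. The log2 signal of Hspa5 was 8.02 and 8.02 with control and 8.07 and 8.02 with knockdown supernatant at 3 h, and 7.51 and 7.43 with control and 7.45 and 7.42 with knockdown supernatant at 6 h. All 6 h arrays lay below all 3 h arrays, with log2 changes of -0.55 ± 0.063 with control and -0.61 ± 0.063 with knockdown supernatant (limma adjusted p = 0.00133 and 0.000976). This is a 1.47-fold and 1.53-fold decrease. Hyou1, which exchanges the nucleotide bound to BiP, had log2 signals of -0.87 and -0.77 with control and -0.88 and -0.61 with knockdown supernatant at 3 h, and -1.0 and -1.11 with control and -0.97 and -0.89 with knockdown supernatant at 6 h. Its groups lay close together, and the log2 changes of -0.24 ± 0.11 and -0.18 ± 0.11 were not called (limma adjusted p = 0.145 and 0.231). Hsp90b1, the HSP90 chaperone GRP94, measured -0.17 and -0.10 and was not called.

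The J-domain cochaperones, which bring substrates to BiP and start its ATPase cycle, held the change of greatest size. The log2 signal of Dnajb9, which codes for ERdj4, was 2.80 and 2.91 with control and 3.05 and 3.02 with knockdown supernatant at 3 h, and 1.08 and 1.54 with control and 1.5 and 1.73 with knockdown supernatant at 6 h. The 4 arrays of 6 h were all lower than the 4 of 3 h, with log2 changes of -1.54 ± 0.16 with control and -1.42 ± 0.16 with knockdown supernatant (limma adjusted p = 0.00104 and 0.00144), or a 2.92-fold and 2.67-fold decrease. A second Dnajb9 probe gave log2 changes of -1.12 and -1.08. Dnajc3, the cochaperone p58IPK and an inhibitor of PERK, had log2 signals of 1.41 and 1.31 with control and 1.17 and 1.24 with knockdown supernatant at 3 h, and 0.93 and 0.75 with control and 0.75 and 0.89 with knockdown supernatant at 6 h. Its 6 h arrays were again below its 3 h arrays, with log2 changes of -0.52 ± 0.094 with control and -0.39 ± 0.094 with knockdown supernatant (limma adjusted p = 0.00757 and 0.0224). Dnajb11 (-0.012 and -0.031) and its partner Sdf2l1 (-0.049 and 0.017) were not called, and a second probe of Dnajb11 gave log2 changes of 0.39 and -0.038.

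Of the lectin chaperones 0 of 2 were lower with control and 1 of 2 with knockdown supernatant. Calr, the soluble lectin calreticulin, had log2 signals of 6.51 and 6.55 with control and 6.64 and 6.53 with knockdown supernatant at 3 h, and 6.23 and 6.34 with control and 6.19 and 6.34 with knockdown supernatant at 6 h. Its 6 h arrays lay below its 3 h arrays by a small step, and the log2 changes of -0.24 ± 0.086 with control and -0.32 ± 0.086 with knockdown supernatant (limma adjusted p = 0.0701 and 0.0308) made it lower with knockdown supernatant only. Canx, the membrane lectin calnexin, had log2 signals of 5.78 and 5.67 with control and 5.66 and 5.54 with knockdown supernatant at 3 h, and 5.44 and 5.63 with control and 5.47 and 5.51 with knockdown supernatant at 6 h. The 6 h arrays lay just below the 3 h arrays of the same supernatant, and Canx was not called (-0.19 and -0.11, limma adjusted p = 0.163 and 0.394).

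Of 5 isomerases 1 was lower with control and 0 with knockdown supernatant. Pdia6 had log2 signals of 6.70 and 6.71 with control and 6.61 and 6.65 with knockdown supernatant at 3 h, and 6.51 and 6.34 with control and 6.51 and 6.41 with knockdown supernatant at 6 h. The 6 h arrays were lower, with log2 changes of -0.28 ± 0.08 with control and -0.17 ± 0.08 with knockdown supernatant (limma adjusted p = 0.0354 and 0.141), so that it was called with control supernatant only. A second Pdia6 probe gave -0.19 and -0.23, neither called. Averaged over its probes, Pdia6 was called lower with knockdown supernatant too (-0.20, limma adjusted p = 0.0394). Pdia3, which works with calnexin and calreticulin, had log2 signals of 4.35 and 4.40 with control and 4.49 and 4.36 with knockdown supernatant at 3 h, and 4.05 and 4.14 with control and 4.06 and 4.23 with knockdown supernatant at 6 h. Its step had much the same size, but the log2 changes of -0.28 ± 0.088 and -0.28 ± 0.088 just missed the threshold (limma adjusted p = 0.0531 and 0.0512). P4hb (-0.14 and -0.15), Pdia4 (-0.05 and -0.11) and Txndc5 (-0.24 and -0.25) were not called.

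The secreted stress proteins were Manf and Creld2, ER residents that leave the cell under stress. The log2 signal of Manf was 4.70 and 4.68 with control and 4.76 and 4.70 with knockdown supernatant at 3 h, and 3.93 and 3.94 with control and 4.0 and 4.03 with knockdown supernatant at 6 h. The arrays of each time lay within a narrow band, and Manf was lower at 6 h with log2 changes of -0.75 ± 0.058 with control and -0.72 ± 0.058 with knockdown supernatant (limma adjusted p = 0.000388 and 0.000484), a 1.69-fold and 1.64-fold decrease. Creld2 had log2 signals of 5.45 and 5.49 with control and 5.39 and 5.46 with knockdown supernatant at 3 h, and 5.26 and 5.20 with control and 5.25 and 5.25 with knockdown supernatant at 6 h. Its step was smaller, with log2 changes of -0.24 ± 0.062 with control and -0.18 ± 0.062 with knockdown supernatant (limma adjusted p = 0.028 and 0.0695), and was called with control supernatant only.

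Of the 7 ERAD genes tested 4 were lower with control and 3 with knockdown supernatant. Syvn1, the ubiquitin ligase HRD1, had log2 signals of 5.20 and 5.24 with control and 5.02 and 5.05 with knockdown supernatant at 3 h, and 4.52 and 4.46 with control and 4.55 and 4.49 with knockdown supernatant at 6 h. The 6 h arrays were the lower ones, with log2 changes of -0.73 ± 0.062 with control and -0.52 ± 0.062 with knockdown supernatant (limma adjusted p = 0.000528 and 0.00172). Edem1, which takes misfolded glycoproteins out of the folding cycle, had log2 signals of 2.97 and 3.04 with control and 3.03 and 2.97 with knockdown supernatant at 3 h, and 2.51 and 2.59 with control and 2.42 and 2.54 with knockdown supernatant at 6 h. It too was lower at 6 h, with log2 changes of -0.46 ± 0.074 with control and -0.52 ± 0.074 with knockdown supernatant (limma adjusted p = 0.00482 and 0.00305). Herpud1, a membrane protein of the HRD1 complex, was lower with both supernatants (log2 changes -0.34 and -0.28; limma adjusted p = 0.00708 and 0.0144). Derl2 was lower with control supernatant (-0.21, limma adjusted p = 0.0484) and not called with knockdown supernatant (-0.17). Its other probes gave log2 changes of -0.074 and -0.083 with control and 0.12 and -0.16 with knockdown supernatant, none of them called. The call of Derl2 was lost when a gene's probes were averaged. Sel1l, the adaptor of HRD1, stayed near 0 (-0.016 and -0.014). Edem2 measured -0.21 and 0.29, the second from arrays at -0.48, inside a bright patch, and -1.28. Without knockdown 6 h replicate 2 Edem2 was called higher with knockdown supernatant (0.69, limma adjusted p = 0.0131), on the array in the patch alone.

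Probes of a gene disagreed most for Derl1 and Ssr1. The brightest Derl1 probe was not called (-0.22 and -0.20), while its second probe gave log2 changes of -0.98 and -1.07 and was called. With a gene's probes averaged, Derl1 was called lower with both supernatants (-0.60 and -0.63). Ssr1, the alpha subunit of the translocon-associated complex, was lower with control supernatant (log2 change -0.26). Its other probes gave -0.98 and -0.41 with control supernatant. With knockdown supernatant they gave -0.51 and -0.30, the last of these called. Averaged over its probes, Ssr1 was called lower with knockdown supernatant too (-0.32, limma adjusted p = 0.0304).

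Of the sensors and Xbp1 all 4 genes were lower with control supernatant, and 3 with knockdown supernatant. The log2 signals of Eif2ak3 given above show no overlap between the times, with log2 changes of -1.39 ± 0.068 with control and -1.27 ± 0.068 with knockdown supernatant (limma adjusted p = 0.000132 and 0.000169), a 2.62-fold and 2.41-fold decrease. Atf6 had log2 signals of 0.19 and 0.18 with control and 0.35 and 0.22 with knockdown supernatant at 3 h, and -0.42 and -0.42 with control and -0.46 and -0.41 with knockdown supernatant at 6 h. All 6 h arrays lay below 0 and all 3 h arrays above it, with log2 changes of -0.60 ± 0.067 with control and -0.72 ± 0.067 with knockdown supernatant (limma adjusted p = 0.00124 and 0.00073). Xbp1 had log2 signals of 5.46 and 5.60 with control and 5.52 and 5.56 with knockdown supernatant at 3 h, and 4.60 and 4.38 with control and 4.49 and 4.42 with knockdown supernatant at 6 h. It was about 1 log2 unit lower at 6 h, with log2 changes of -1.04 ± 0.099 with control and -1.09 ± 0.099 with knockdown supernatant (limma adjusted p = 0.000716 and 0.000677), or 2.06-fold and 2.12-fold. Ern1, the gene of IRE1, had log2 signals of -0.16 and -0.42 with control and -0.32 and -0.26 with knockdown supernatant at 3 h, and -0.58 and -0.82 with control and -0.58 and -0.51 with knockdown supernatant at 6 h. The control replicates lay further apart than the knockdown replicates at each time, and log2 changes of -0.41 ± 0.12 with control and -0.25 ± 0.12 with knockdown supernatant (limma adjusted p = 0.0409 and 0.152) gave a call with control supernatant only.

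The regulatory subunits that guide the phosphatase of eIF2alpha were both lower at 6 h with both supernatants. Ppp1r15b, the constitutive subunit, had log2 signals of -0.44 and -0.48 with control and -0.38 and -0.37 with knockdown supernatant at 3 h, and -1.03 and -1.04 with control and -1.01 and -0.96 with knockdown supernatant at 6 h. No array of 6 h reached one of 3 h, with log2 changes of -0.58 ± 0.057 with control and -0.61 ± 0.057 with knockdown supernatant (limma adjusted p = 0.00083 and 0.000753). Ppp1r15a, the stress-induced subunit GADD34, had log2 signals of 3.53 and 3.58 with control and 3.61 and 3.62 with knockdown supernatant at 3 h, and 3.40 and 3.26 with control and 3.1 and 3.15 with knockdown supernatant at 6 h. The knockdown arrays of 6 h were the lowest, with log2 changes of -0.23 ± 0.071 with control and -0.49 ± 0.071 with knockdown supernatant (limma adjusted p = 0.0496 and 0.00332).

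In the membrane, Wfs1, the ER protein wolframin, had log2 signals of 3.32 and 3.27 with control and 3.15 and 3.09 with knockdown supernatant at 3 h, and 2.74 and 2.64 with control and 2.69 and 2.62 with knockdown supernatant at 6 h. It was lower at 6 h, with log2 changes of -0.60 ± 0.07 with control and -0.46 ± 0.07 with knockdown supernatant (limma adjusted p = 0.00142 and 0.00378). Ssr1 had log2 signals of 5.57 and 5.55 with control and 5.50 and 5.55 with knockdown supernatant at 3 h, and 5.31 and 5.29 with control and 5.39 and 5.36 with knockdown supernatant at 6 h. Its step was smaller, with log2 changes of -0.26 ± 0.057 with control and -0.15 ± 0.057 with knockdown supernatant (limma adjusted p = 0.0149 and 0.0889). Sec61b, a subunit of the translocation channel, measured -0.20 and -0.13 and was not called.

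Several of these calls were lost when single arrays were left out. With control supernatant, Pdia6, Creld2, Derl2 and Ppp1r15a lost the call without any 1 array except control 6 h replicate 1, with limma adjusted p up to 0.131, 0.128, 0.161 and 0.194. Ern1 lost it without any 1 array except control 3 h replicate 2 and control 6 h replicate 1 (up to 0.182), and Ssr1 without either control 3 h array (up to 0.0767). With knockdown supernatant, Dnajc3 and Herpud1 lost the call without either knockdown 3 h array or without knockdown 6 h replicate 1 (up to 0.111 and 0.0788). Calr lost it without any 3 h array or without knockdown 6 h replicate 1 (up to 0.152). With no scaling 6 genes stayed called with control supernatant (Dnajb9, Eif2ak3, Manf, Syvn1, Wfs1 and Xbp1) and 3 with knockdown supernatant (Dnajb9, Eif2ak3 and Xbp1). These kept their calls under all 21 alternatives.

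**Figure D4:**
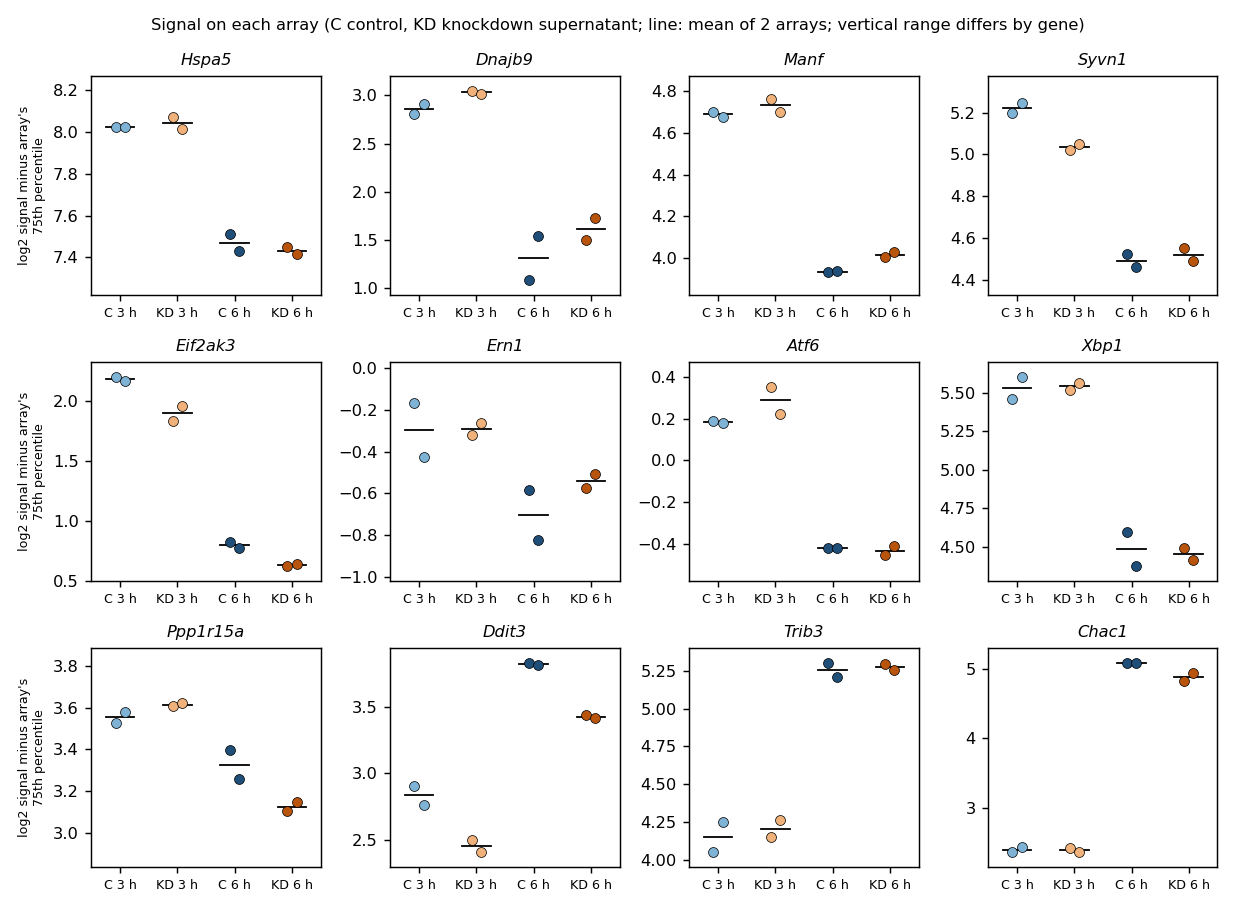
Log2 signal relative to the array's 75th percentile for 12 genes, with 1 point per array and a line at the mean of the 2 arrays (C control, KD knockdown supernatant). The first 9 genes are lower at 6 h on both arrays of each supernatant, and Ddit3, Trib3 and Chac1 are higher.

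Genes of the ATF4 and CHOP branch went both ways between the times. Of 15 tested, 3 were higher and 7 lower with control and 3 higher and 6 lower with knockdown supernatant (median log2 change -0.18 and -0.077). Over all features the shares called lower were 23.4% with control and 22.6% with knockdown supernatant, and the shares called higher 16.3% and 17.5%, the background for this and the following lists. The 3 higher genes were the same with both supernatants, Chac1, Trib3 and Ddit3. Chac1, which breaks down glutathione and is a target of ATF4 and CHOP, had log2 signals of 2.37 and 2.44 with control and 2.43 and 2.37 with knockdown supernatant at 3 h, and 5.09 and 5.08 with control and 4.83 and 4.94 with knockdown supernatant at 6 h. It was 6.39-fold and 5.59-fold higher at 6 h, with log2 changes of 2.68 ± 0.07 with control and 2.48 ± 0.07 with knockdown supernatant (limma adjusted p = 8.35e-05 and 9.55e-05). Trib3, a pseudokinase induced by CHOP, had log2 signals of 4.05 and 4.25 with control and 4.15 and 4.26 with knockdown supernatant at 3 h, and 5.30 and 5.21 with control and 5.30 and 5.26 with knockdown supernatant at 6 h. All of its 6 h arrays lay above all 3 h arrays, with log2 changes of 1.1 ± 0.092 with control and 1.07 ± 0.092 with knockdown supernatant (limma adjusted p = 0.000489 and 0.00059). Ddit3 was 1.99-fold and 1.97-fold higher, with log2 changes of 0.99 ± 0.075 with control and 0.97 ± 0.075 with knockdown supernatant (limma adjusted p = 0.000361 and 0.000408). Atf4 itself, which is controlled at translation, had log2 signals of 7.67 and 7.73 with control and 7.82 and 7.71 with knockdown supernatant at 3 h, and 7.96 and 7.83 with control and 7.97 and 7.87 with knockdown supernatant at 6 h. Its log2 changes of 0.19 ± 0.081 and 0.15 ± 0.081 were not called (limma adjusted p = 0.114 and 0.195). The transcription factors Cebpb (-1.38 and -0.98) and Atf3 (-0.94 and -0.91) were lower.

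Other genes of ERAD were lower more than higher. Of 27, 16 were lower and 2 higher with control and 14 lower and 4 higher with knockdown supernatant (median log2 change -0.44 and -0.38). Edem3, a mannosidase of the same family as Edem1, was lower (log2 changes -1.04 and -0.89), as was the ubiquitin-conjugating enzyme Ube2g2 (-1.03 and -0.74). The ligase Rnf139 (-0.92 and -0.69) was lower too, as was Rnf185 (-0.77 and -0.87). Both calls of Rnf139 were lost without some single arrays. With each of the 8 arrays left out in turn, the log2 change of Rnf139 ranged from -1.20 to -0.63 with control and from -0.72 to -0.65 with knockdown supernatant. Ngly1, which strips sugar chains from proteins bound for the proteasome, was higher (0.84 and 0.69). Ngly1, and Atf3 above, were named after their values were seen.

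Of 23 genes of translocation into the ER and signal peptidase, 10 and 7 were lower and 0 higher (median -0.21 and -0.15). The greatest change was that of the translocon-associated Tram2 (-1.26 and -1.15). The signal recognition particle subunits Srp68 (-0.64, called with control only) and Srp19 (-0.40 and -0.51, called with both supernatants) were lower too. So was the signal peptidase subunit Spcs2 (-0.49 and -0.47). Both calls of Spcs2 were lost when a gene's probes were averaged (log2 changes -0.14 and -0.34, limma adjusted p = 0.555 and 0.141). The call of Srp68 was lost without either control 3 h array (limma adjusted p up to 0.097). Of 35 further folding and redox genes 7 were lower and 3 higher with control, and 4 and 3 with knockdown supernatant (median -0.065 and -0.052). The lower ones are 20% and 11.4% of this list, below the 23.4% and 22.6% of all features. Txndc11 was lower with both (-0.94 and -0.86). Calu (-0.43) and Dnajc1 (-0.42) were lower with control supernatant. The call of Calu held only without control 3 h replicate 1 or control 6 h replicate 2 (limma adjusted p up to 0.174 otherwise), and that of Dnajc1 was lost without either control 3 h array or control 6 h replicate 1 (up to 0.102).

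Of 22 genes of N-glycosylation and the lectin cycle 4 were lower and 1 higher with control, and 5 and 1 with knockdown supernatant (median -0.065 and 0.011). The lower ones are 18.2% and 22.7% of this list, near or below the 23.4% and 22.6% of all features. Gfpt1, the entry enzyme of the hexosamine pathway, was lower (-1.46 and -1.50), as was Gmppb, which makes GDP-mannose (-1.02 and -0.74). Pgm3 of the hexosamine pathway was lower (-0.67 and -0.53), and Dpagt1, which starts the lipid-linked sugar chain, was higher (0.59 and 0.66). Of 20 signalling regulators 7 were lower and 2 higher with control, and 9 and 4 with knockdown supernatant (median -0.17 and -0.15). Among them Bhlhe40 (-0.99 and -0.92) and the membrane-bound factor Creb3l2 (-0.66 and -0.81) were lower and Trp53inp1 was higher (0.85 and 0.72). Crebrf was lower with knockdown supernatant (-0.75), though not without either knockdown 3 h array or knockdown 6 h replicate 1 (limma adjusted p up to 0.0931). Kdelr3, a receptor that returns chaperones to the ER, was lower (-0.54 and -0.57, limma adjusted p = 0.0032 and 0.00272).

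Together 51 of the 142 other genes of the pathway were lower and 11 higher with control, and 45 and 15 with knockdown supernatant. That is 35.9% and 31.7% lower, beside 23.4% and 22.6% of all features, and 7.75% and 10.6% higher, beside 16.3% and 17.5%. Chaperones outside the ER were counted for comparison. Of 36 in the cytosol and mitochondria 13 were lower and 0 higher with control, and 12 and 2 with knockdown supernatant (median -0.079 and -0.065). The lower ones are 36.1% and 33.3% of this list, beside the same 23.4% and 22.6% of all features. The cochaperones Bag3 (-1.48 and -1.49) and Chordc1 (-0.83 and -0.79) were lower, as were the J-domain proteins Dnajb1 (-0.88 and -0.72) and Dnajb4 (-0.72 and -0.83). The difference between the chaperones of the ER and these was not tested.

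**Figure D5:**
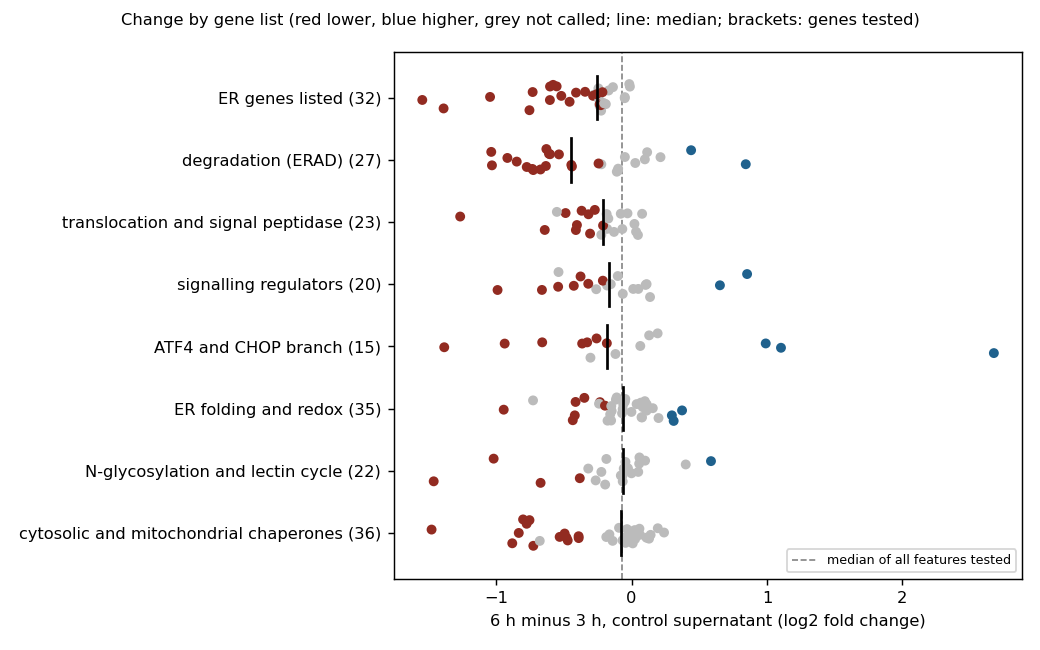
Log2 change from 3 h to 6 h with control supernatant for each gene of each list, 1 point per gene, with the list's median as a bar and the median of all features as a dashed line. The ER genes listed and the other ERAD genes have the lowest medians (-0.25 and -0.44), and the points far right are Trib3, Ddit3 and Chac1.

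The time changes of genes with and without the promoter motif are set side by side. Of the 10 tested genes with ERSE or ERSE-II, 6 were lower with control and 5 with knockdown supernatant (median log2 change -0.26 and -0.23). Of the 17 tested genes whose promoters hold neither, 9 and 6 were lower (median -0.24 and -0.25). Of all features 23.4% and 22.6% were called lower. With genes outside the set included, 28 tested genes held ERSE or ERSE-II. Of these 12 were lower and 2 higher with control, and 7 lower and 3 higher with knockdown supernatant (median -0.22 and -0.11). Xbp1, Eif2ak3 and Dnajb9 held neither motif in these 300 bases, and no match says only that the letters are not in this window. The counts were not tested against each other.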

How the data were processed

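Total RNA of 3T3-L1 cells (2 arrays in each of 4 groups, called biological replicates in the labels) was labelled with Cy3. The authors' deposited scanner files, which per the submitters' processing notes come from Agilent Feature Extraction 10.7.3.1, give a background-subtracted intensity for each spot. The authors' deposited value table of log2 values equals the log2 processed intensity with 1 shift per array and was used as an alternative. Its column medians were -4.14, -4.17, -4.22 and -4.23 at 3 h and -3.95, -4.05, -4.11 and -4.22 at 6 h, controls first, and the basis of its shift is unknown.

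Outlier spots (163 to 319 per array) and control spots were left out, and 0 spots were saturated. Log2 signals were set relative to each array's 75th percentile. Of 55681 probes 27235 were named by RefSeq accession, 20 by symbol or synonym and 28426 stayed unnamed. Probes well above background on each array of some group were kept, and the brightest probe stood for a gene, leaving 25804 features. Means of the 4 groups were fitted with limma 3.58.1 (R 4.3.3; lmFit, eBayes; 4 residual and 1.74 prior degrees of freedom), with Benjamini-Hochberg adjustment over all features and calls at an adjusted p under 0.05. The fit was tested on simulated data. The number of arrays limits the precision, and p-values reflect only how these samples vary, which may be technical. Replicate arrays correlated at 0.988 to 0.998.

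The members, gene lists and tests were chosen with earlier results of these data known. Values on each array are given for the genes with the smallest p in each role (up to 2), for Hspa5, Xbp1 and the sensors, and of other lists up to 3 called genes of greatest change are named besides Atf4, Ddit3, Trib3, Chac1, Edem3 and Kdelr3. Equal replicate numbers did not pair the arrays (correlations -0.046 to 0.087). Python 3.11.15, numpy 2.4.6, pandas 2.3.3, scipy 1.17.1 and matplotlib 3.10.9 were used. RefSeq names came from GRCm38.p6, and no coordinates are given for probes.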

Additional observations from a re-analysis of the deposited data

How the results depend on the processing

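With control supernatant, the 18 genes lower at 6 h became 6 with no scaling and 11 with the 75th percentile of detected probes. They became 11 without the filter on dim probes. The share of all features called lower with control supernatant was 23.4%, and became 11.1%, 15.8% and 8.23% in that order. With knockdown supernatant the 14 genes became 3 with no scaling, where the share of all features went from 22.6% to 7.04%. Leaving out 1 array at a time left 1 array in a group, so only sizes are given here. The median log2 change of the 32 genes then ranged from -0.29 to -0.25 with control supernatant, beside -0.13 to -0.016 for all features. With knockdown supernatant it ranged from -0.31 to -0.20, beside -0.11 for all features. Without knockdown 6 h replicate 2 Edem2 measured 0.69 with knockdown supernatant, on the array in the patch alone. Calls lost without single arrays are listed above. With the replicate block 16 and 14 genes were called lower, beside 23.0% and 22.5% of all features, and the numbers do not pair the arrays. The supernatant average called 1 gene, Eif2ak3, with the 75th percentile of detected probes, beside 904 of 25804 features. With features above background on all 8 arrays only it called the same 1 gene, beside 1116 of 21585 features. In the main setting it called 790 of 25804 features. No setting called a gene for the supernatant at 3 h, at 6 h or for the difference of the effects. Among genes outside the set, Hspa4 turned to 0.14 (limma adjusted p = 0.466) between the times with control supernatant when a gene's probes were averaged, which takes in other probes. The cause of the other changes was not tested. All 32 genes tested were well above background on every array, and the probe of Derl3 on 0 of 8. Without the filter on dim probes the features tested rose from 25804 to 49094. The 14 genes lower with knockdown supernatant then became 11, beside 7.20% of all features. The median log2 change of the 32 genes stayed at -0.25 with each supernatant. How the filter changed the calls was not tested.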
